A study of Homo sapiens with 2 samples.

Results

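RNAseq values of the AP-1 subunits and of ATF3 were compared between control and FZR1 ko breast cancer cells, both treated with cisplatin, a platinum drug that crosslinks DNA. The members are the 8 genes FOS, FOSB, FOSL1 and FOSL2 (the FOS family), JUN, JUNB and JUND (the JUN family) and ATF3, taken by their Entrez gene IDs from a table of 23033 genes with a value. The label of both libraries is T-47D, a luminal line, with the genotypes WT and FZR1 ko and 2 µg/mL of the drug. The ko line came from CRISPR/Cas9 editing and single cell cloning, so it is a single clone. No time of treatment is given for this experiment in the sources used here. FZR1, whose protein is also called Cdh1, is an activator of the anaphase promoting complex, a ubiquitin ligase of the cell cycle.

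Each condition had 1 library, so no difference below has a replicate check and no test was made. Values are FPKM, the fragments of a gene divided by its transcript length and by the mapped fragments in all. The number of reads behind them is unknown. FZR1 mRNA had 12.3 FPKM in control and 10.1 in FZR1 ko. Cas9 edits often spare the mRNA level, so these values do not check the labels. Several genes that define luminal cells were near 0 in both libraries, among them ESR1, PGR, GATA3 and KRT19, each under 1 FPKM, and the cells are therefore called only by their label. Of the 13 luminal markers 6 had at least 1 FPKM in a library, and the list summed to 1495 FPKM in control and 1836 in FZR1 ko, mostly from the keratins KRT8 and KRT18. EPCAM, an epithelial adhesion protein, was the luminal marker at least 2-fold apart, with 3.90 and 11.5 FPKM. Of the 12 basal and mesenchymal markers 9 were kept, summing to 447 FPKM in control and 405 in FZR1 ko, and CDH2 (2.97 and 15.3 FPKM) and EGFR (7.73 and 22.2 FPKM) were at least 2-fold higher in FZR1 ko. Of the 9 kept, 4 were higher and 5 lower at any size. Of all 13554 genes kept, 6.78% were at least 2-fold higher, and 6726 were higher and 6812 lower at any size. Of 12 leukocyte and stromal markers 6 were kept, with CD14 at 1.05 and 0.11 FPKM and PDGFRB at 0.44 and 1.58 FPKM. None of these 12 was at least 2-fold apart on the scale used below. The part of these differences between the lines in the values of the members was not tested.

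AP-1 is a family of transcription factor dimers. Its subunits carry a basic region that contacts DNA and a leucine zipper that holds the dimer together. JUN proteins pair with each other or with FOS proteins, while FOS proteins need a JUN partner. ATF3 is a related zipper protein that is induced by many kinds of stress and can pair with JUN proteins. Several members are immediate early genes, switched on within minutes of a stimulus by ERK, JNK and p38 kinases acting on factors already present, and their mRNAs are short-lived. DNA damage by cisplatin is known to activate JNK signalling and to raise JUN and ATF3. No library without the drug is in the series. A weaker response to cisplatin therefore cannot be told apart from a lower level before it.

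The sequences just upstream of the transcription starts are shown first, because they set members past the 2-fold threshold beside those within it. They come from the RefSeq table of GRCh38.p14, which is the hg38 build, and run from 250 bases before the start to 50 bases of the transcript. Windows were found for 7 of the 8 members, with none for FOSL1. Capitals mark TGACG on either strand, TGACGTCA, TGACATCA on either strand, the AP-1 site TGACTCA or TGAGTCA, and TATAAA on the gene's own strand. TGACG, which starts the cAMP response element TGACGTCA, is therefore counted within that longer motif too. The first 4 windows belong to genes that were at least 4-fold lower in FZR1 ko, and the last 2 to genes that were not.
FOS, chr14:75278578-75278877, plus strand: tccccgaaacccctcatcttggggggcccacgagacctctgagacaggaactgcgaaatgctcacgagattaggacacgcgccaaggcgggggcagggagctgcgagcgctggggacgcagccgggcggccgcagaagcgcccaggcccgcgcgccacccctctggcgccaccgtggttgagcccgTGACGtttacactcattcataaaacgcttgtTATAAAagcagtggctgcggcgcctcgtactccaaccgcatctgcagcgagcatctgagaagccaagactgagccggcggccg
FOSB, chr19:45467746-45468045, plus strand: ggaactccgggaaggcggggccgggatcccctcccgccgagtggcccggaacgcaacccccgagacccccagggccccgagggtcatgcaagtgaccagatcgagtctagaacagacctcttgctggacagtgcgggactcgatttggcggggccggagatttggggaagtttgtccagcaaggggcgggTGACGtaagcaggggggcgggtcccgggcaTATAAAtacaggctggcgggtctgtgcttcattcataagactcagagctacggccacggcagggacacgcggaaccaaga
JUN, chr1:58783998-58784297, minus strand: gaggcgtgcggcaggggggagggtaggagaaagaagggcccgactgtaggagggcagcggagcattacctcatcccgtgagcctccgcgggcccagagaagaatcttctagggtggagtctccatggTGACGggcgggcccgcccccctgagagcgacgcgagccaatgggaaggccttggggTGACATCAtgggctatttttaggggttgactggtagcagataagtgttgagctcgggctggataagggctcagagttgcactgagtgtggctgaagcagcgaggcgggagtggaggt
ATF3, chr1:212565157-212565456, plus strand: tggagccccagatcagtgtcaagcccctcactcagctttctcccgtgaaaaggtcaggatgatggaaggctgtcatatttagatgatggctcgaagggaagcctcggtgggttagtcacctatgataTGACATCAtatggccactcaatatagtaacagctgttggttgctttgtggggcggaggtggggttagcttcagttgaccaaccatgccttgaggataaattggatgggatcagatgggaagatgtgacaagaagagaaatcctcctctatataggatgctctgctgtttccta
JUND, chr19:18281573-18281872, minus strand: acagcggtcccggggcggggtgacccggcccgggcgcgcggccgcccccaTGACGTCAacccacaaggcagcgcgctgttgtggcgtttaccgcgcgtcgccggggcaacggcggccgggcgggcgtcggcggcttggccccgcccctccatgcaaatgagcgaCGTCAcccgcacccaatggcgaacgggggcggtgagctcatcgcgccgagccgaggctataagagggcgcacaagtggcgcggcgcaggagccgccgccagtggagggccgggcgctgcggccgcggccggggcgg
FOSL2, chr2:28392608-28392907, plus strand: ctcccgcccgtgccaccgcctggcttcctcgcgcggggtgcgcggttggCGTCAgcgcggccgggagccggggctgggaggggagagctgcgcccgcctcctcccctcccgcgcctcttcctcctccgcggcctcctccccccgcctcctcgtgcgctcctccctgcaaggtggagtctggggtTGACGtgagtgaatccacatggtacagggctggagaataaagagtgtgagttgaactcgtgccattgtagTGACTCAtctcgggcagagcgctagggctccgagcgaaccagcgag

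FOS and FOSB resembled each other in these windows. FOS held TGACG from 64 to 60 bases before the start and TATAAA from 33 to 28 bases before it, and FOSB held them from 60 to 56 and from 30 to 25 bases before it. JUN and ATF3 both held TGACATCA, the variant known from the JUN promoter, 67 to 60 bases before the start in JUN and 123 to 116 bases before it in ATF3. That motif is in 918 of all 35116 windows (2.61%). JUND held TGACGTCA (1.85% of all windows), and FOSL2 held TGACTCA at bases 5 to 11 of the transcript (4.95% of all windows hold an AP-1 site). JUNB, whose window is not printed, held TGACG from 137 to 133 bases and TATAAA from 31 to 26 bases before the start. TGACG in either direction was in the windows of 6 of the 7 members, and it is in 24.6% of all windows. It was present in members that were lower in FZR1 ko and in members that were not. TATAAA is in 7.33% of all windows. A CArG box, the binding sequence of serum response factor, was in none of the 7 members' windows and is in 1.29% of all windows. Bases further than 250 before the start were not searched, so a box there would be missed. For ATF3 a second start is listed as well, further downstream, and its window (chr1:212614768-212615067) held TATAAA 230 to 225 bases before the start and no TGACATCA. Which ATF3 start these cells used is not known from values per gene. These matches describe letters within a short window.

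Of the 8 members, 6 were at least 2-fold lower in FZR1 ko than in control, 0 were at least 2-fold higher, and FOSL2 and JUND were neither. The scale is the log2 of FPKM + 1 in FZR1 ko divided by FPKM + 1 in control, on which differences of low genes look smaller than they are. Genes that reached 1 FPKM in either library or both were kept, and all 8 members were. In a bulk library a lower level in every cell and fewer cells with the mRNA cannot be told apart. The same threshold was passed by 911 of the 13554 genes kept in the lower direction, which is 6.72%, and by 919 in the higher direction, which is 6.78%. Centred on the median of the widely expressed genes, the same threshold gave 1128 lower and 707 higher genes, with the same 6 members lower. The median log2 ratio was -1.66 over the members and -0.0048 over all genes kept. At least 4-fold lower were FOS, FOSB, JUN and ATF3, 4 of the 8 members, against 0.657% of all genes kept.

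**Figure D1:**
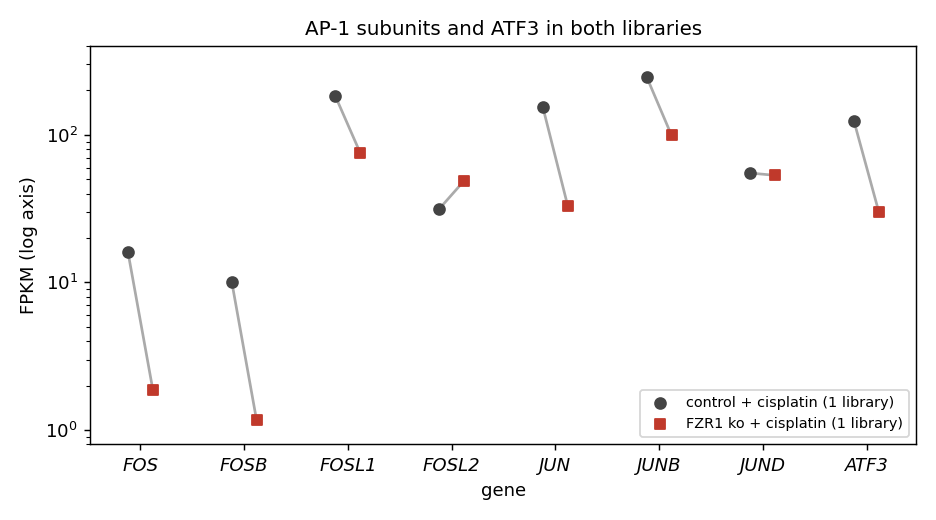
FPKM of each AP-1 subunit and of ATF3 on a log axis, with 1 point per library (grey circles for control, red squares for FZR1 ko) and a line joining the 2 values of a gene. FOS, FOSB, JUN and ATF3 show the steepest lines, JUND lies level at 55.0 and 53.1 FPKM, and FOSL2 is the member with the higher value in FZR1 ko.

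FOS, the classical partner of JUN in the AP-1 dimer, had 16.0 FPKM in control and 1.86 in FZR1 ko. The control value was thus 8.59 times the other, and the log2 ratio was -2.57. Among all genes kept, 31 had a log2 ratio as low as this or lower, FOS included (0.229%). In control 37.4% of the genes kept had a higher FPKM than FOS, and in FZR1 ko 85.2% did. The gene (Entrez gene 2353) lies on chromosome 14 from 75278828 to 75282230 and has 4 exons in its canonical GENCODE 44 transcript.

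FOSB, which like FOS carries a strong activation domain and is best known for its long-lived short form in neurons, had 10.1 FPKM in control and 1.16 in FZR1 ko. Its log2 ratio was -2.36, and its FPKM without a pseudocount differed 8.72-fold. FOS and FOSB were the least abundant members in both libraries, and they had the largest differences on this scale. At 1.16 FPKM the value of FOSB lay close to the limit of 1 FPKM used to keep genes, so its log2 ratio depends on the pseudocount. With a pseudocount of 5 FPKM it was -1.29 and that of FOS was -1.61, and JUN (-2.06) and ATF3 (-1.88) then had the larger differences. The gene (Entrez gene 2354) lies on chromosome 19 from 45467996 to 45475179.

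FOSL1 encodes FRA1, a FOS protein that lacks the strong activation domain and is abundant in invasive and basal-like breast cancer cells. It was the most abundant FOS gene in both libraries, with 182 FPKM in control and 75.1 in FZR1 ko. The log2 ratio was -1.27, a 2.43-fold lower level, and 3.38% of all genes kept had a ratio as low. FOSL1 (Entrez gene 8061) lies on the minus strand of chromosome 11 from 65892049 to 65900545.

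FOSL2 encodes FRA2, the other FOS protein without a strong activation domain. It had 31.4 FPKM in control and 48.8 in FZR1 ko, a log2 ratio of 0.62. It was the member with the higher value in FZR1 ko, by 1.55-fold, which did not reach the 2-fold threshold, and 16.7% of all genes kept had a ratio as high. The gene (Entrez gene 2355) lies on chromosome 2 from 28392858 to 28417317, where it overlaps the antisense gene FOSL2-AS1, which had 1.84 FPKM in control and 1.07 in FZR1 ko. Whether the counting used strand is not given in the sources used here, so reads in the overlap are uncertain.

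JUN, the founding JUN protein and the main nuclear target of JNK, had 153 FPKM in control and 32.9 in FZR1 ko. The control level was 4.66 times higher and the log2 ratio was -2.19, a value reached by 58 of the genes kept (0.428%). JUN ranked below 523 genes in control and below 2780 genes in FZR1 ko. It is an intronless gene (Entrez gene 3725) on the minus strand of chromosome 1 from 58780791 to 58784047.

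JUNB, a weaker activator than JUN that can oppose it in proliferating cells, was the most abundant member in both libraries. It had 247 FPKM in control and 99.2 in FZR1 ko, a log2 ratio of -1.31 and a 2.49-fold lower level, close to the difference of FOSL1. The gene (Entrez gene 3726) has 1 exon and lies on chromosome 19 from 12791486 to 12793315. The gene model of HOOK2 runs into its start, with 6.77 and 8.54 FPKM, which is far below JUNB.

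JUND, which is expressed in resting cells of most tissues and is not a typical immediate early gene, had 55.0 FPKM in control and 53.1 in FZR1 ko. The log2 ratio was -0.05, and 46.6% of all genes kept had one as low or lower. It was the member with the smallest difference. JUND (Entrez gene 3727) also has 1 exon, on the minus strand of chromosome 19 from 18279694 to 18281622, so the 3 intronless JUN genes covered ratios from -2.19 to -0.05.

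ATF3, a stress-induced factor that is itself a target of p53 and of ATF4, had 123 FPKM in control and 29.8 in FZR1 ko. The log2 ratio was -2.01, a 4.14-fold lower level, and 0.620% of all genes kept had one as low. ATF4 mRNA, which encodes the factor above ATF3 in the integrated stress response, had 159 FPKM in control and 148 in FZR1 ko (log2 ratio -0.11). The gene (Entrez gene 467) lies on chromosome 1 from 212565407 to 212620777.

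**Figure D2:**
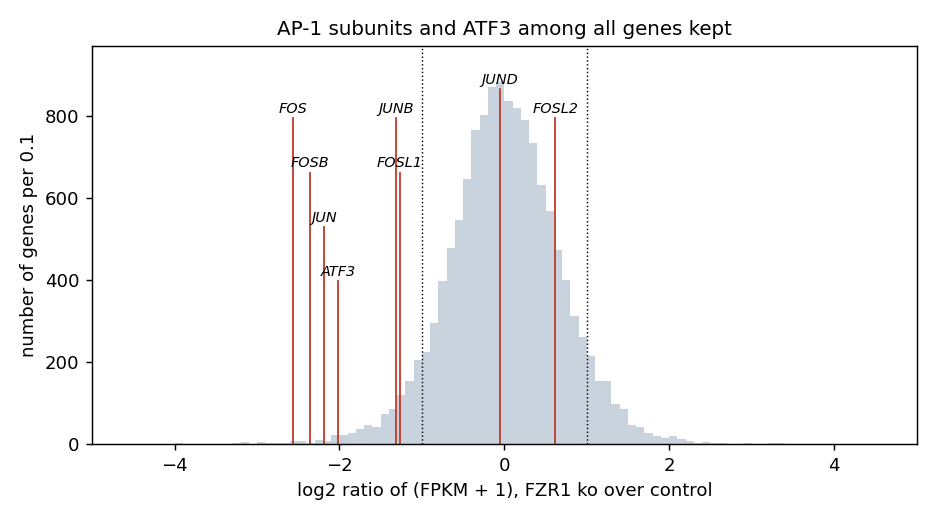
Number of the 13554 genes kept in steps of 0.1 of the log2 ratio of (FPKM + 1), FZR1 ko over control, with a red line at the ratio of each member and dotted lines at the 2-fold thresholds. The heights of the red lines carry no value. FOS, FOSB, JUN and ATF3 stand below -2, JUNB and FOSL1 between -2 and -1, and JUND and FOSL2 within the bulk of the genes.

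The members therefore took a different order in each library. In control it ran from JUNB over FOSL1, JUN, ATF3, JUND, FOSL2 and FOS to FOSB, and in FZR1 ko from JUNB over FOSL1, JUND, FOSL2, JUN, ATF3 and FOS to FOSB. JUN and ATF3 stood above JUND and FOSL2 in control and below them in FZR1 ko. JUN had 2.79 times the level of JUND in control and 0.620 times in FZR1 ko. FOSL1 had 5.79 times the level of FOSL2 in control and 1.54 times in FZR1 ko. With 1 library each, the spread that would separate neighbours in this order is not known. FPKM is scaled to transcript length, so such levels can be set side by side, although a gene with several isoforms depends on the length assigned to it.

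Summed over the FOS family, the level was 239.6 FPKM in control and 126.9 in FZR1 ko, a log2 ratio of -0.91. Without FOSL1, its most abundant member, the ratio of the sums was -0.15. For the JUN family it was 455.5 and 185.2 FPKM, a log2 ratio of -1.29. The JUN family was thus the larger of the families in both libraries. FOS and FOSB together made up 10.9% of the FOS family level in control and 2.38% in FZR1 ko. FOSL1 made up 76.0% and 59.2%, and FOSL2 13.1% and 38.4%. In the JUN family JUNB kept nearly the same share, 54.3% in control and 53.6% in FZR1 ko. The share of JUN was 33.7% and 17.8%, and that of JUND was 12.1% and 28.7%. The families in FZR1 ko thus held a larger share of JUND and FOSL2 mRNA and a smaller share of JUN, FOS and FOSB mRNA. These are shares of mRNA, and protein was not measured in these files.

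Short-lived mRNAs often carry AU-rich elements in the 3′ UTR, which are bound by proteins that recruit the deadenylation machinery. The nonamer TTATTTATT, a core of such elements, was searched in the 3′ UTR of the canonical GENCODE 44 transcript on hg38. It was present in FOS and FOSL2 and in 9.45% of the 11448 protein-coding genes kept with such a transcript. The stretch printed for FOS, the nonamer with 10 bases on each side, lies in exon 4 at chr14:75282060-75282088 and that for FOSL2 in exon 4 at chr2:28416355-28416383, both on the plus strand. They are shown because these are the members that hold it, with the nonamer in capitals. FOSL2 did not pass the 2-fold threshold.
FOS: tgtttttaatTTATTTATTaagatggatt
FOSL2: atttattttaTTATTTATTttaaatgttt
FOS had 5 ATTTA pentamers in 806 bases of 3′ UTR, or 6.20 per kb, and 4.83% of these genes had as many per kb. By count alone, 5 or more pentamers were present in 31.7% of them. JUNB had 2 pentamers in 500 bases, or 4 per kb, and ATF3 and JUN had 3 each, at 2.46 and 2.34 per kb. FOSL2, with 9 pentamers the highest count, had 1.85 per kb in its long 3′ UTR of 4869 bases. FOSB had 3 pentamers in 2167 bases (1.38 per kb), and JUND (1.34 per kb) and FOSL1 (1.19 per kb) had 1 each. The median over all these genes was 1.61 per kb.

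Zipper proteins outside the members can share partners with them, and 45 such genes were compared. Of these 35 were kept, 3 were at least 2-fold lower and 0 at least 2-fold higher in FZR1 ko, and their median log2 ratio was -0.24, or -0.11 without the filter on low values. The 3 lower genes stand beside 6.72% of all genes kept. Among them were small MAF proteins, which bind a longer relative of the AP-1 site. MAFF, a small MAF protein without an activation domain, had 57.8 FPKM in control and 14.98 in FZR1 ko (log2 ratio -1.88). MAFG, also a small MAF, had 64.3 and 22.5 FPKM (-1.47). Of 13 MAF and CNC genes 9 were kept, with a median of -0.72. All 9 were below 0, as were 6812 of all 13554 genes kept.

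The other zipper groups held no gene past the threshold. Among 16 ATF and CREB genes kept the median was 0.21, and values ran from CREM, at 26.4 and 15.8 FPKM (-0.71), to CREB3L2, at 6.04 and 12.8 FPKM (0.97). JDP2, a repressor that pairs with JUN, had 5.15 FPKM in control and 10.1 in FZR1 ko (0.86), and BATF3 had 3.98 and 7.19 FPKM (0.72). These were the 2 genes kept of 4 in the BATF and JDP2 group. Among 8 C/EBP and PAR genes kept the median was -0.51, from CEBPA, at 24.4 and 13.0 FPKM (-0.85), to DBP, at 1.37 and 2.94 FPKM (0.73).

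Kinases and factors that act upstream of the members formed a list of 42 genes, of which 40 were kept. In FZR1 ko 27 were higher and 13 lower at any size, and the median was 0.19, or 0.09 when centred on widely expressed genes. Over all 13554 genes kept, 6726 were higher and 6812 lower at any size. Of the 40 upstream genes 3 were at least 2-fold higher and 1 at least 2-fold lower, beside 6.78% and 6.72% of all genes kept. The ERK cascade had a median of 0.52 over 12 genes with none past 2-fold, from NRAS, a RAS protein at 62.6 and 36.5 FPKM (-0.76), to MAP2K2, which encodes the kinase MEK2, at 53.7 and 97.1 FPKM (0.84). In the JNK cascade the median was 0.16 over 11 genes. MAP3K5, which encodes ASK1, a kinase above JNK and p38, passed the threshold with 1.01 FPKM in control and 3.22 in FZR1 ko (1.07). The JNK genes themselves differed less, with MAPK8 at 5.12 and 7.21 FPKM and MAPK9 at 17.8 and 17.1 FPKM.
In the p38 cascade, with a median of 0.19 over 11 genes, MAP2K6, which encodes the p38 kinase MKK6, had 3.15 FPKM in control and 14.6 in FZR1 ko (1.91). Serum response factor (SRF), which switches on FOS through the CArG box, had 30.6 and 26.6 FPKM (-0.20). Of its cofactors ELK4 was lower, at 19.6 and 8.79 FPKM (-1.07), and MRTFA was higher, at 1.01 and 4.41 FPKM (1.43), and the median of the 6 genes was -0.06. The levels are those of mRNA, and the activity of the kinases was not measured here.

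Genes that AP-1 is known to activate in other cells formed a list of 30, of which 28 had a value and 22 were kept. In FZR1 ko 7 of these were at least 2-fold lower and 1 at least 2-fold higher, 20 were lower at any size, and the median log2 ratio was -0.61, or -0.38 with a pseudocount of 5 FPKM. Of all 13554 genes kept 6.72% were at least 2-fold lower, 6.78% at least 2-fold higher, and 6812 lower at any size. CXCL8, the neutrophil chemokine interleukin 8, had 186 FPKM in control and 18.7 in FZR1 ko (-3.25). HBEGF, a ligand of the EGF receptor, had 57.1 and 8.03 FPKM (-2.69). PLAU, the urokinase protease, had 17.9 and 4.25 FPKM (-1.84), and IL11, a cytokine of the interleukin 6 family, had 42.9 and 12.3 FPKM (-1.72). The opposite was seen for TGM1, a transglutaminase of the cornified envelope, with 6.08 and 18.8 FPKM (1.48). Many genes of this list answer to NF-kB or to p53 as well as to AP-1.

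Factors that remove mRNA or protein of the members were listed too. Of 17 AU-rich element binding and decay factors, all kept, 2 were at least 2-fold lower and 1 at least 2-fold higher, with a median of 0.29. These counts stand beside the same 6.72% and 6.78% of all genes kept. ZFP36, which binds AU-rich elements and speeds decay and is itself an immediate early gene, had 28.8 FPKM in control and 7.47 in FZR1 ko (-1.82). Its relative ZFP36L1 had 65.8 and 24.6 FPKM (-1.38). HNRNPD, which encodes AUF1, another AU-rich element binding protein, had 33.0 and 80.4 FPKM (1.26). Among 7 subunits of ubiquitin ligases that act on JUN protein 6 were kept, all 6 were higher at any size, as were 6726 of all 13554 genes kept, and the median was 0.44. COP1, a subunit that recognises JUN, had 2.79 FPKM in control and 8.27 in FZR1 ko (1.29). It was the gene of that list past the threshold. Over the mRNA and protein decay factors together the median was 0.36, and 0.18 with a pseudocount of 5 FPKM.

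**Figure D3:**
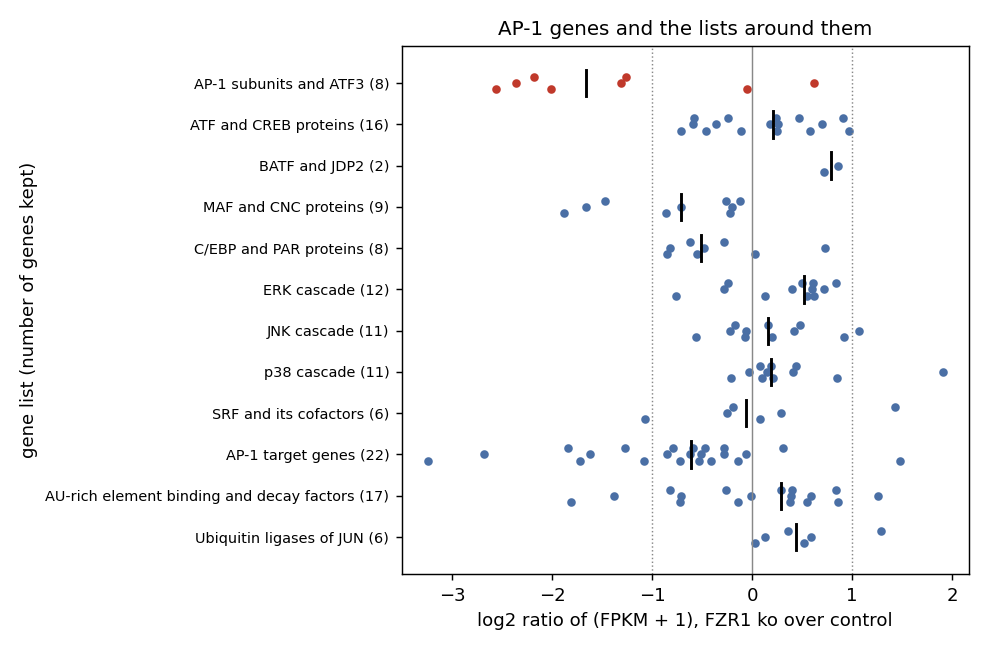
Log2 ratio of (FPKM + 1), FZR1 ko over control, for every gene kept in the members and in each list around them, with 1 point per gene, a black bar at the median of each list and dotted lines at the 2-fold thresholds. The members have a median of -1.66, the MAF and CNC proteins -0.72 and the AP-1 target genes -0.61, while the kinase cascades lie between 0.16 and 0.52.

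The protein-coding genes whose pair of values lay nearest to FOS, JUN and ATF3 were found by the distance between their log2(FPKM + 1) values over the 2 libraries. Nearest to FOS were SPRY4, an inhibitor of RAS and ERK signalling, with 14.6 and 1.83 FPKM (distance 0.126), EGR1, an immediate early zinc finger factor, with 15.4 and 1.57 FPKM (0.161), and IFITM1, an interferon-induced membrane protein, with 16.4 and 2.21 FPKM (0.171). The gene nearest to JUN was ATF3 itself (distance 0.343), followed by PMAIP1 (0.406) and the readthrough gene NME1-NME2, with 123 and 40.4 FPKM (0.424). PMAIP1, which encodes the apoptosis initiator NOXA, was also the gene nearest to ATF3, with 128 and 26.4 FPKM (0.176). It was followed by SAT1, an enzyme of polyamine breakdown, with 118 and 24.7 FPKM (0.264), and RSRP1, with 99.4 and 29.8 FPKM (0.307). A likeness over 2 libraries says only that these genes had like levels in both.

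All 8 members stayed on their side of the 2-fold threshold under pseudocounts of 0.1 and 5 FPKM, and the 3 other scalings changed neither this nor their direction. A pseudocount cannot turn a direction, and the filters leave a kept member's ratio as it is. FOS ranged from -3.04 to -1.61 and FOSB from -3.02 to -1.29, both over pseudocounts of 0.1 to 5 FPKM. JUN ranged from -2.29 to -2.06, ATF3 from -2.11 to -1.88, JUNB from -1.41 to -1.28, FOSL1 from -1.37 to -1.22, JUND from -0.15 to -0.04 and FOSL2 from 0.52 to 0.63. The 23 widely expressed genes whose median served as a scaling had a median log2 ratio of 0.10, with 1 gene, EMC7 (138 and 58.2 FPKM), past the threshold.

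**Figure D4:**
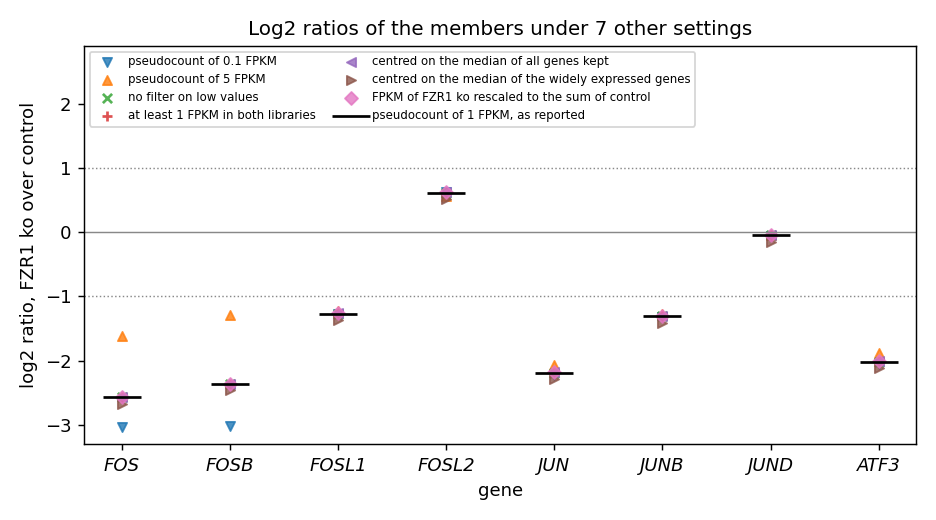
Log2 ratio of each member, FZR1 ko over control, as reported (black bar) and under 7 other settings of pseudocount, filter and scaling (coloured marks), with dotted lines at the 2-fold thresholds. The marks spread for FOS and FOSB, from -3.04 to -1.61 and from -3.02 to -1.29, and lie closer to the bar for the other members.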

How the data were processed

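Total RNA of 1 control and 1 FZR1 ko culture was sequenced by BGISEQ-500. The authors used Bowtie2 and RSEM with hg38 transcripts and deposited FPKM per Entrez gene ID to 2 decimals. The submitters' processing notes also list Trimmomatic 0.36, HISAT2 2.1.0 and Bowtie2 2.2.5. The annotation version and filters are not given in the sources used here. The table has 24663 rows, of which 1630 hold no value, and 0 other columns of values per sample. Of 23033 gene IDs 22925 matched a symbol in the RefSeq table of GRCh38.p14.

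For each gene log2 ratios were computed with a pseudocount of 1 FPKM, among genes of at least 1 FPKM in at least 1 library, and a 2-fold threshold was applied. The computation of ratios and counts was tested on simulated data, which checks the arithmetic only. Levels hold no read counts, so no intervals are given. The members and the gene lists were chosen, from general knowledge, with earlier results of these data known. Named in the text are the members, FZR1, up to 4 genes per list and direction past the threshold (or the extremes of a list without any), and the 3 genes nearest to FOS, JUN and ATF3. ATF4, MAPK8, MAPK9, SRF, ESR1, PGR, GATA3, KRT19, KRT8 and KRT18 and the genes that overlap members were added after their values were seen. A few list genes that this covers are left out of the text. Alternatives were pseudocounts of 0.1 and 5 FPKM, other filters, centring, rescaling and a 4-fold threshold. Python 3.11.15, numpy 2.4.6, pandas 2.3.3 and matplotlib 3.10.9 were used.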

Additional observations from a re-analysis of the deposited data

How the results depend on the processing

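No paired analysis was possible because there are no replicates to pair or to leave out (1 library per condition, no test). The log2 ratios of all 8 members stayed on their side of the 2-fold threshold under both pseudocounts and the 3 scalings, and kept their sign under the scalings. A pseudocount cannot change the sign, and the 2 filters cannot change these ratios at all. The number of members at least 2-fold lower stayed at 6 under these and was 4 at a 4-fold threshold. The background moved more. Against 911 lower and 919 higher genes, a pseudocount of 0.1 FPKM gave 1358 lower and 1460 higher genes, centring on the widely expressed genes 1128 lower and 707 higher genes, a pseudocount of 5 FPKM gave 270 lower and 183 higher genes, and a 4-fold threshold gave 89 lower and 61 higher genes, as fewer genes pass a larger pseudocount or threshold by construction. Without the most abundant member of each family, the share of FOSL2 was 39.5 percentage points higher in FZR1 ko than in control, against 25.3, and that of JUND was 35.3 points higher, against 16.6. The ratio of the FOS family sums was then -0.15, against -0.91. With a pseudocount of 5 FPKM the median of the upstream genes was 0.12, that of the AP-1 target genes -0.38 and that of the mRNA and protein decay factors together 0.18 (0.36 with 1 FPKM), and without a filter that of the other zipper genes was -0.11. Protein-coding genes only, a setting chosen after seeing the data, gave 657 lower and 738 higher genes. The unknown depth limits FOS and FOSB in FZR1 ko most, at 1.86 and 1.16 FPKM.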
